A study of Eurytemora affinis with 15 samples.

Results

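Among 23728 genes of the estuarine copepod Eurytemora affinis, 400 met a rule for genes high only after exposure to elutriate of Fatouville sediment at 2500 mg/L, and the 150 with the widest margin are described here. The rule asked for a mean normalised read count over all libraries of at least 50 and for all 3 Fatouville 2500 mg/L values above the other 12. It also asked that the range of the 3 Fatouville 350 mg/L values overlap that of the 3 controls. Genes were ranked by (lowest Fatouville 2500 mg/L value + 1)/(highest other value + 1). The genes were thus chosen by their values in all 15 libraries, so the difference between Fatouville 2500 mg/L and the rest is given as a description. The calls in its contrast with Control are counted under several settings, and nothing is read from them.

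RNA came from whole adult males collected in the Seine estuary, acclimatised at 15 psu and 15 °C and exposed for 72 h, in pools of 30 males. The 5 groups of 3 pools were a control kept in water without elutriate, Fatouville elutriate at 350 and at 2500 mg/L, and Tancarville elutriate at 350 and at 2500 mg/L. An elutriate is the water phase recovered after sediment has been mixed with water, and the 2 names are the sediment sites. The study looked for effects of such elutriates on gene expression, with this copepod as a test species for sediment toxicity. The labels call the pools biological replicates of wild-caught animals, and in pools of whole animals more cells of a type and more RNA per cell cannot be told apart.

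Elutriates carry into the water what estuarine sediment releases, which can include metals and organic contaminants. Crustaceans are known to answer such exposures with enzymes that modify, conjugate and export foreign compounds, with antioxidant enzymes, with metal-binding proteins and with chaperones that refold damaged proteins. Molting, feeding and swimming muscle are other processes often followed in copepods under contaminant stress. Gene names for the identifiers are not given in the files used here, so the roles of the 150 genes and the markers of tissues were not analysed here, and genes are given by identifier.

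The libraries held 13.6 to 17.2 M reads in genes. The 150 genes took from 0.409% to 0.544% of the reads in the other 12 libraries and 0.670%, 0.746% and 0.753% in Fatouville 2500 mg/L replicates 1, 2 and 3. Over all tested genes, Control 3 lay 67.6 from its group mean (Euclidean distance on log2 values) against 45.6 and 48.2 for the other controls, replicate 2 of Fatouville 350 mg/L lay at 73.8 against 50.3 and 52.9, and replicate 3 of Tancarville 2500 mg/L at 79.96 against 72.3 and 55.6. These 3 libraries are treated as standing apart, a choice made with the data known. It leaves in Tancarville 350 mg/L replicate 1 at 67.1 and Tancarville 2500 mg/L replicate 1 at 72.3, the latter farther out than Control 3. Some results that rest on these 3 libraries are also given without 1 or all of them.

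Separation of this kind was more frequent for Fatouville 2500 mg/L than for any other group. Of the 14371 genes with a mean of at least 50, 451 (3.14%) had all 3 values of this group above the other 12 libraries. The same count was 54 for Control, 57 for Tancarville 350 mg/L, 23 for Tancarville 2500 mg/L and 10 for Fatouville 350 mg/L. Of the 451, 400 also had overlapping ranges in Fatouville 350 mg/L and Control.

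Most of the 150 genes were higher by a modest amount. The Fatouville 2500 mg/L mean was 1.41 times the Control mean in the median gene, with a range of 1.15 to 13.5 over the 150. It was at least 1.2 times the Control mean in 147 genes, at least 1.5 times in 48, at least 2 times in 17 and at least 4 times in 10. The median ratio was 1.40 to Fatouville 350 mg/L, 1.40 to Tancarville 2500 mg/L and 1.52 to Tancarville 350 mg/L. Against Control 1 and 2 alone it was 1.48, and against Control 3 alone it was 1.31. The genes were moderately abundant, with overall means of 51.2 to 6863 normalised counts and a median of 296.

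**Figure D1:**
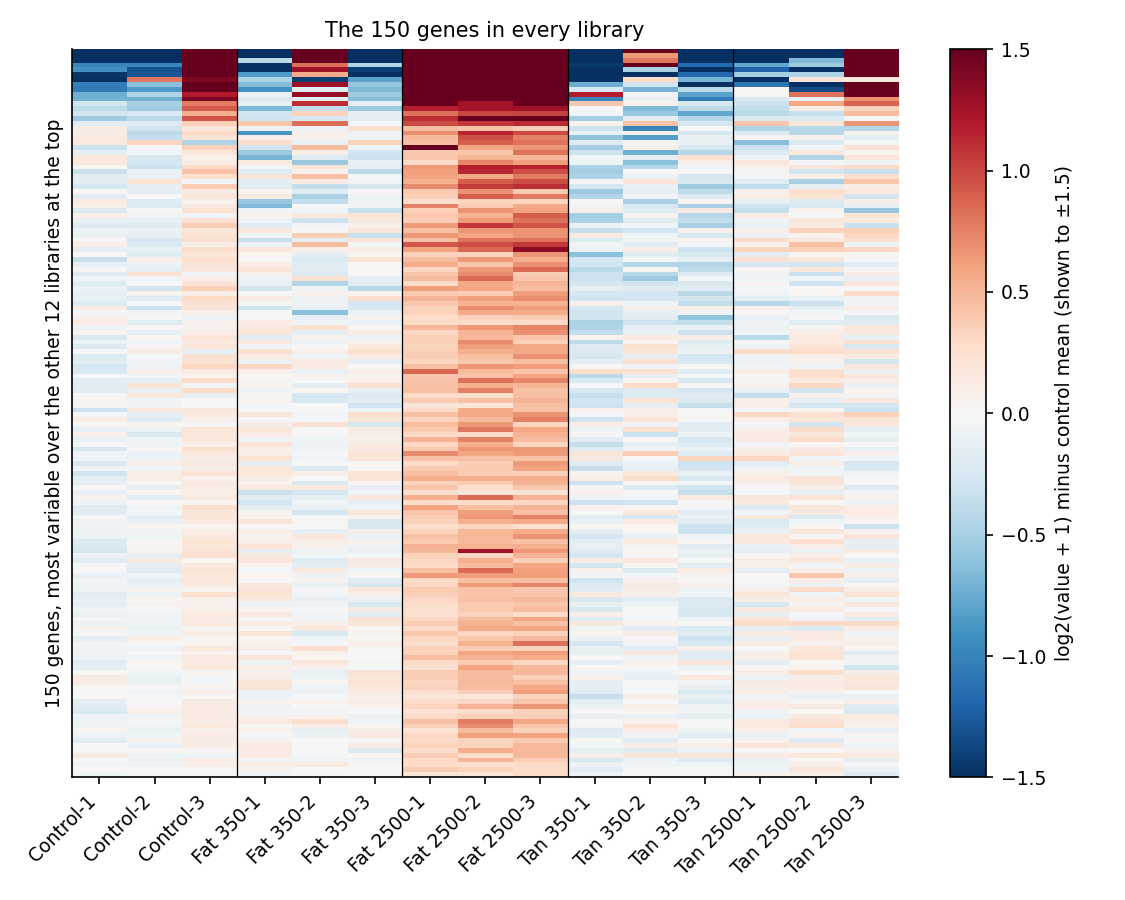
Each of the 150 genes (rows) in each of the 15 libraries (columns), as log2(value + 1) minus the gene's mean over the 3 controls, with colours limited to ±1.5. The 3 Fatouville 2500 mg/L columns are red throughout, as the rule requires, and the 9 most variable genes at the top are also red in Control 3 and in replicate 3 of Tancarville 2500 mg/L, except 1 gene near its control mean in the latter.

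The margin that set the ranking was narrow for most genes. The ratio of the lowest Fatouville 2500 mg/L value to the highest other value had a median of 1.11 over the 150, reached 1.2 in 16 genes and was 1.65 in the first. The 95% counting intervals of those 2 values lay apart in 18 genes and overlapped in 132. Such intervals cover counting error only. Just inside the limit, LOC111696873 had a ratio of 1.06 (248 against 234 normalised counts), as had LOC111703520 (242 against 229). Just outside it, LOC111704292 (491 against 463) and LOC111708125 (218 against 205) also had ratios of 1.06.

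**Figure D2:**
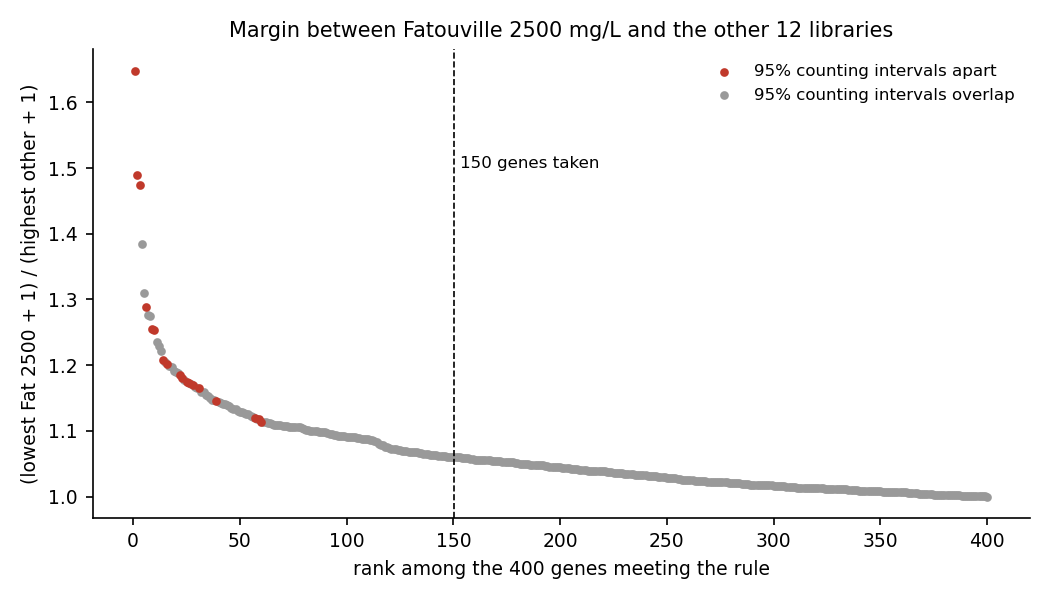
The ratio (lowest Fatouville 2500 mg/L value + 1)/(highest other value + 1), without units, against rank for the 400 genes that met the rule; the dashed line marks the 150 taken, and red points are genes whose counting intervals lay apart. The ratio falls from 1.65 to 1.06 within the 150 and has no step at the limit.

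The 2 genes at the head of the ranking were not silent elsewhere but varied between pools. LOC111712601 stood at 352, 550.1 and 349 normalised counts in the 3 pools of Fatouville 2500 mg/L. It was also at 191 in Control 3, 211 in Tancarville 2500 mg/L replicate 3 and 76.2 in Fatouville 350 mg/L replicate 2, and the other 9 libraries held 0 to 10.2. Its group means were 417 ± 115 at Fatouville 2500 mg/L and 64.0 ± 110.1 in Control (SD, n = 3 each), so that the control spread came from 1 pool.

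LOC111695716, second in rank, was at 119, 342 and 143 normalised counts at Fatouville 2500 mg/L. Its controls were at 5.63, 51.6 and 79.5, and the 9 remaining libraries ranged from 3.36 to 35.7. Neither gene overlapped with the other libraries, and in both the highest control was Control 3.

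Of the 150 genes, 9 varied in this way, with an SD over the other 12 libraries above 1 on the log2 scale, a limit chosen after the values were seen. Their Fatouville 2500 mg/L means were 4.14 to 13.5 times the Control means. Against Control 1 and 2 alone, 6 of the 9 had ratios of 7.04 to 49.4. Of the remaining 3, LOC111712604, named after its values were seen, had no read in those 2 controls. Its ratio to them had a lower 95% counting limit of 163 and was 201 when a floor of 3 counts over both was assumed. LOC111712601 had 1 read there, a ratio of reads scaled for depth of 875 (95% counting interval 157 to 34604), and LOC111712600 had 2, a ratio of 1139 (315 to 9407). These limits cover counting error only and leave out the spread between pools. In Control 3, LOC111712601, LOC111712604 and LOC111712600 were at 191, 146 and 412 normalised counts. Their ratios to the mean of all 3 controls were 6.51, 5.90 and 7.82. The median over these 9 genes was 338, 496 and 303 normalised counts in the Fatouville 2500 mg/L libraries, 163 in Control 3, 211 in Tancarville 2500 mg/L replicate 3 and 67.7 in Fatouville 350 mg/L replicate 2. It was 2.99 to 35.7 in the other 9 libraries. The highest library outside the group was Tancarville 2500 mg/L replicate 3 in 7 of the 9 genes and Control 3 in 2.

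Across the other 12 libraries the levels of these 9 genes correlated with each other at a median Pearson r of 0.80 on the log2 scale (range 0.30 to 0.98), a description over libraries that share their depth. The 9 were picked for their spread over the same libraries, and the correlation was not computed without the 3 that stand apart. The gene of widest ratio to Control among the 9, LOC111715309, was at 251 to 303 normalised counts at Fatouville 2500 mg/L, 5.63, 5.74 and 51.1 in the controls and 218 in Tancarville 2500 mg/L replicate 3. It was named after its values were seen. The 3 genes most like LOC111712601 over all 15 libraries were LOC111712600 (r = 0.99), itself among the 150, and LOC111695380 (r = 0.99) and LOC111704375 (r = 0.99), which were not. LOC111695380 was at 1264 normalised counts in Control 3 against 808 in Fatouville 2500 mg/L replicate 1, and LOC111704375 at 1556 against 992, so that both overlapped with the control range.

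The larger part of the list varied little over the other 12 libraries, which include the other exposed groups. The rule capped the values of these libraries, and the same spread over all tested genes is not given here. In 138 of the 150 genes the SD over the other 12 libraries was below 0.5 on the log2 scale, and the Fatouville 2500 mg/L mean of these was 1.15 to 2.57 times the Control mean, with a median of 1.41. The median level over the 138 genes lay between 295 and 342 normalised counts in the 12 other libraries and above that range at Fatouville 2500 mg/L, to 411, 445 and 450.4. Among these genes the pairwise correlation over the other 12 libraries had a median of 0.25.

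The most abundant of the 150 genes was LOC111704298. It was at 7979, 8599 and 9308 normalised counts at Fatouville 2500 mg/L and at 6211, 6151 and 6416 in the controls. The Fatouville 350 mg/L libraries held 7161, 5923 and 6964, the Tancarville 350 mg/L libraries 5741, 6187 and 5738, and the Tancarville 2500 mg/L libraries 6694, 6786 and 7083. Its mean was 8629 ± 665 against 6260 ± 139 in Control (SD, n = 3 each), and among the rest a Fatouville 350 mg/L pool came nearest.

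LOC111695651, second in abundance, was at 5839, 5245 and 5469 normalised counts at Fatouville 2500 mg/L and at 3352, 3686 and 4581 in the controls, with the other 9 libraries between 3324 and 4333. Control 3 was again the library nearest to the group. At the low end of abundance, LOC111701110 was at 60.8, 79.5 and 79.6 against 45.1, 37.3 and 53.0 in the controls. LOC111712904 was at 70.3, 71.0 and 94.4 against 47.9, 51.6 and 60.6. The lowest Fatouville 2500 mg/L value of these last 2 genes rested on 64 and 74 reads, and its counting interval overlapped that of the highest other library.

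In the 150 genes the pools of Fatouville 2500 mg/L were mostly close to each other. LOC111704013, at rank 4 and named after its values were seen, was at 154, 158 and 167 normalised counts at Fatouville 2500 mg/L against 85.4, 68.8 and 85.2 in the controls, a ratio of means of 2.00. The highest Fatouville 2500 mg/L pool was less than 1.5 times the lowest in 140 of the 150 genes and at least 2 times in 4. The same shares over all tested genes are not given here. The rule looks at the lowest of the 3 pools and so favours genes with close pools. The median coefficient of variation over the 150 genes was 8.76% within Fatouville 2500 mg/L, 9.14% within Fatouville 350 mg/L, 9.27% within Tancarville 2500 mg/L and 11.1% within Tancarville 350 mg/L, with Control between the last 2. Over all tested genes the same medians were 15.8% within Fatouville 2500 mg/L, the highest of the 5 groups, and 15.3% within Fatouville 350 mg/L. They were 13.3% within Tancarville 2500 mg/L, 13.0% within Control and 12.5% within Tancarville 350 mg/L. All 150 were among the 18921 genes that passed the filter on low values, none of them through the Fatouville 2500 mg/L libraries alone.

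**Figure D3:**
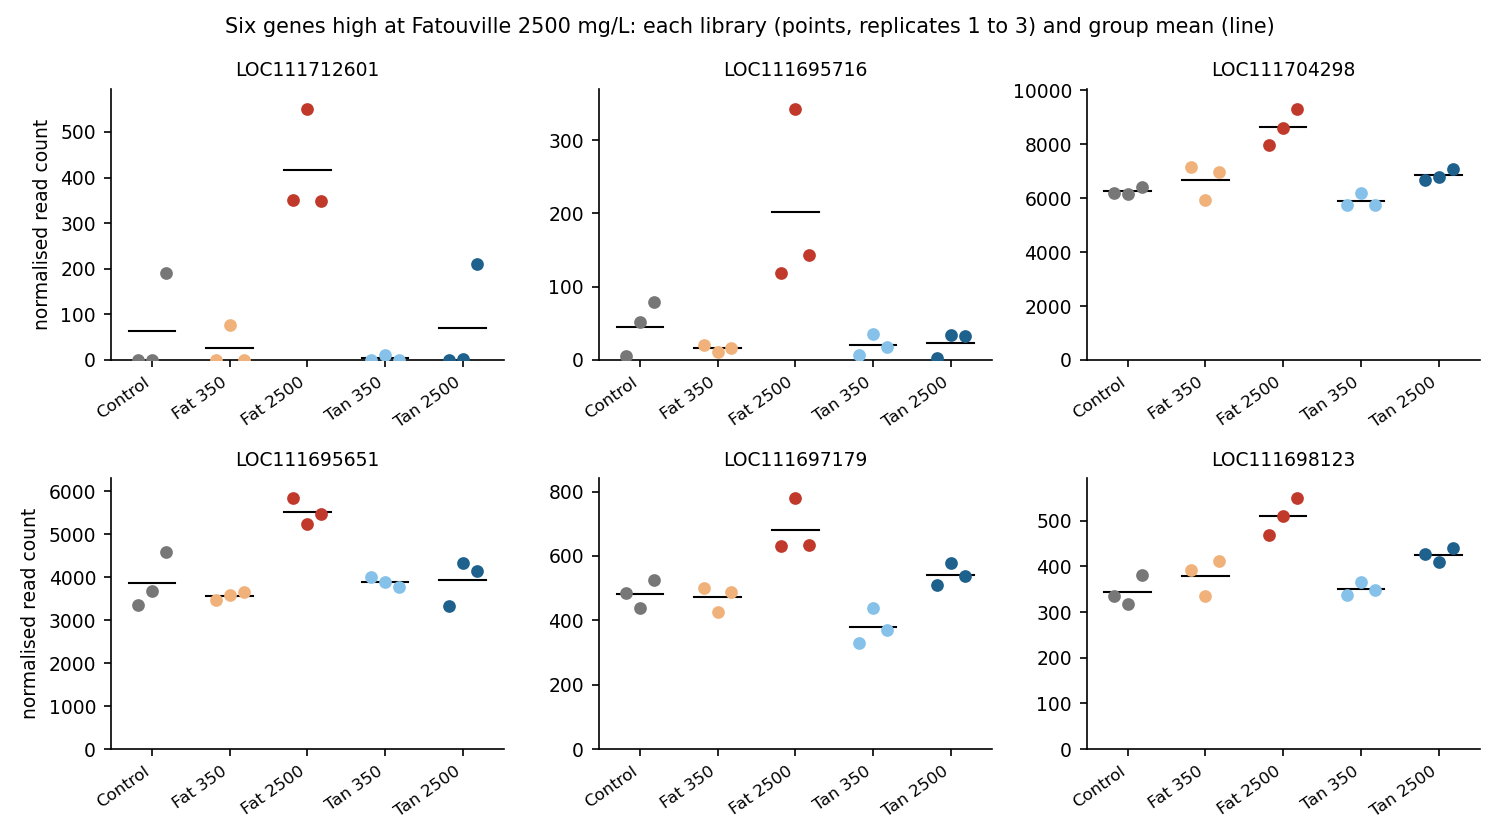
Normalised read counts of 6 genes in each of the 15 libraries (points, 3 per group, replicate 1 to 3 from left to right), with the group mean as a line and the vertical axis starting at 0. LOC111712601 is also present in Control 3 and in replicate 3 of Tancarville 2500 mg/L, whereas LOC111704298 and LOC111695651 are abundant in every library and higher at Fatouville 2500 mg/L.

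The pools of the exposed group did not contribute equally. Fatouville 2500 mg/L replicate 1 was the lowest of the 3 in 106 of the 150 genes, and the highest was replicate 3 in 73 and replicate 2 in 62. The median gene of the 150 stood above its control mean by 0.39, 0.53 and 0.56 on the log2 scale in replicates 1, 2 and 3, or 30.7%, 44.8% and 47.9%. Since the ranking uses the lowest of the 3 pools, replicate 1 most often set a gene's place. Without replicate 1, 1971 genes met the rule, with all of the 150 among them and 24 among the first 150.

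Control 3 held the next highest level more often than any other library. It was the highest of the 12 in 51 of the 150 genes, ahead of Tancarville 2500 mg/L replicate 2 in 23 and replicate 3 in 18. Control 3 lay above both other controls in 121 of the 150 genes (80.7%), against 36.1% of all tested genes. Its median difference from the control mean was 0.15 on the log2 scale, against -0.08 in Control 1 and -0.07 in Control 2. Without Control 3, 705 genes met the rule, with 126 of the 150 among them and 25 among the first 150. Without all 3 libraries that stood apart, 655 genes met it, with 86 of the 150 among them and 28 among the first 150.

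**Figure D4:**
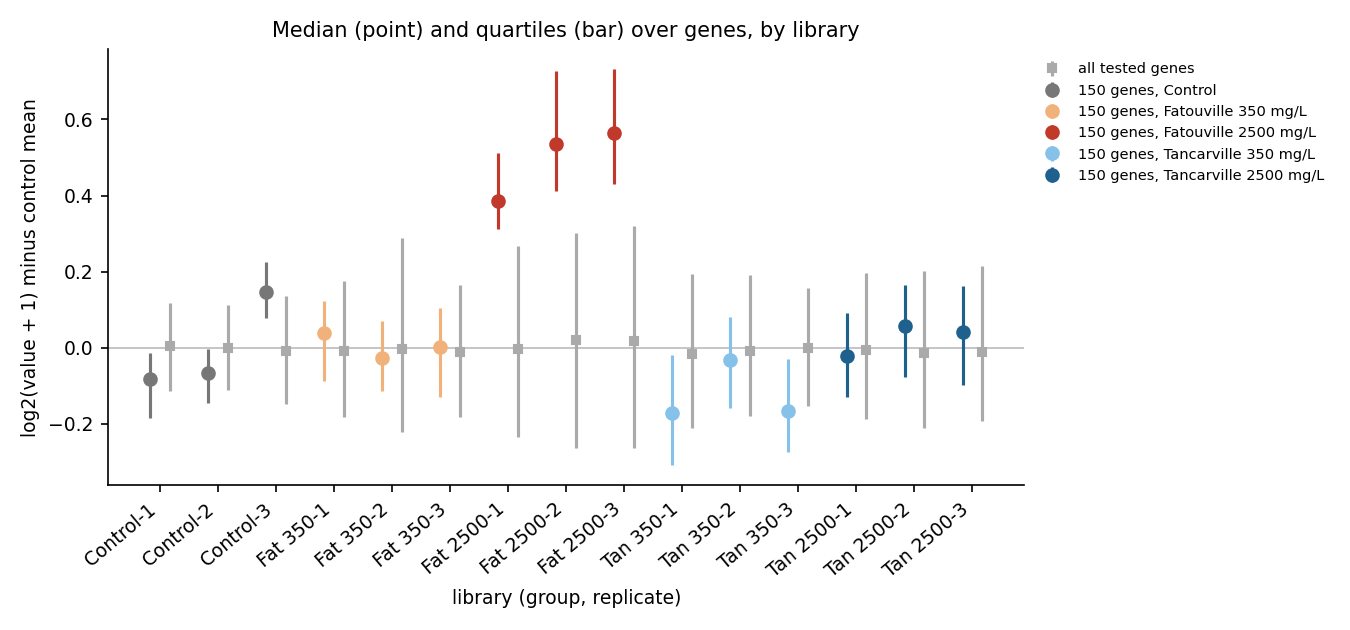
Difference of log2(value + 1) from the mean of the 3 controls in each library, as the median (point) and quartiles (bar) over the 150 genes (coloured circles) and over all 18921 tested genes (grey squares). The 150 genes lie at 0.39 to 0.56 at Fatouville 2500 mg/L and at 0.15 in Control 3, while the medians of all tested genes stay between -0.02 and 0.02.

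By limma with Benjamini-Hochberg adjustment over all genes, 7 of the 150 were called higher at Fatouville 2500 mg/L than in Control, where 12 genes (0.0634% of those tested) were called higher and 36 (0.19%) called in all. The rule used this contrast, so nothing is read from that count. It was 103 by DESeq2, where 1641 genes were called in all, and 9 by edgeR, where 41 were. Without Control 3 it was 77, of 860 genes called in all. It was 0 without Control 1 or Control 2, where 11 and 2 genes were called in all. Quantile normalisation moved the median of all tested genes in this contrast from 0.01 to -0.10 on the log2 scale and that of the 150 from 0.50 to 0.43.

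The rule set no direction between the Tancarville groups and Control, but it held all their values below the lowest Fatouville 2500 mg/L value, so that a gene raised further by Tancarville elutriate could not be among the 150. The shares in these contrasts are therefore descriptions of capped values. None of the 150 genes changed at Tancarville 2500 mg/L or 350 mg/L against Control, or between the 2 Tancarville concentrations, by limma at an adjusted p below 0.05. Over all tested genes limma called 4 (0.0211%), 3 (0.0159%) and 0 (0%) in these contrasts. At an unadjusted p under 0.05 there were 3, 11 and 23 of the 150 (2.0%, 7.33% and 15.3%), against 7.96%, 3.85% and 5.74% of all tested genes. Without Control 3 the 3 at Tancarville 2500 mg/L became 8 (5.33%, against 4.60% of all tested genes). The 11 at Tancarville 350 mg/L became 2 (1.33%, against 2.67%), and they were 6 without Tancarville 350 mg/L replicate 1. edgeR and DESeq2 also called 0 of the 150 in each of the 3 contrasts. DESeq2 gave no p-value for some of the 150 in any contrast, and these count as not called.

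Between the Tancarville concentrations the 150 genes lay mostly on the side of the higher one, though none passed. At 2500 mg/L 123 of the 150 (82.0%) were higher than at 350 mg/L, against 51.4% of all tested genes, with a median log2 fold change of 0.15 against 0.01. In 35 of the 150 (23.3%) all 3 values at 2500 mg/L lay above all 3 at 350 mg/L, against 6.67% of tested genes, and in 0 of the 150 they lay below, against 6.69%. The median of the 150 stayed between 0.12 and 0.17 over 28 alternatives, and between 112 and 131 genes were higher. Many of the 28 could not move these values: leaving out a Control or Fatouville library, other filters, the replicate block, no trend and a fit of the 2 groups alone. Only other pseudocounts, scalings and methods and leaving out a Tancarville library could. The genes covary across pools and are not independent. The count at an unadjusted p under 0.05 was 7 without Tancarville 350 mg/L replicate 1, 15 without its replicate 3 and 12 without Tancarville 2500 mg/L replicate 3. It was also 10 with values divided by the library total and 12 with quantile normalisation. Without the 3 libraries that stand apart it was 18 (12%, against 7.49% of all tested genes).

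The gene with the smallest p in that contrast was LOC111697179. It was at 510.4, 578 and 537 normalised counts at Tancarville 2500 mg/L and at 329, 438 and 371 at Tancarville 350 mg/L. The log2 fold change was 0.52, with an SE of 0.12 and a limma adjusted p of 0.857, and did not pass, although the 2 groups did not overlap. Its controls were at 486, 440 and 524, and its Fatouville 2500 mg/L values at 632, 779 and 635.

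Tancarville 350 mg/L had the lowest group mean in 96 of the 150 genes. Against Control, 122 of the 150 were lower there, with a median log2 fold change of -0.12 against -0.01 over all tested genes. In 22 of the 150 (14.7%) all 3 values lay below all 3 controls, against 6.44% of tested genes, and in 0 above, against 5.46%. This difference moved with Control 3: without it the median of the 150 was -0.03, and 87 were lower and 63 higher. LOC111702839 had the smallest p, at 186, 209 and 203 normalised counts against 281, 229 and 271 in the controls. Its log2 fold change was -0.38, with an SE of 0.11 and a limma adjusted p of 0.973, which did not pass.

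With all 3 controls, Tancarville 2500 mg/L lay close to Control. Of the 150 genes, 85 were higher and 65 lower, with a median log2 fold change of 0.02 against -0.02 over all tested genes. In 8 of the 150 (5.33%) all 3 values lay above the controls, against 8.62% of tested genes, and in 3 (2.0%) below, against 7.93%. The sign of that median depended on the scaling and on the controls. It was -0.04 with values divided by the library total, -0.01 with quantile normalisation, -0.03 without Control 1, -0.01 without Control 2 and 0.10 without Control 3. Without Control 3, 120 of the 150 were higher and 30 lower (80% higher, against 48.5% of all tested genes). Without the 3 libraries that stand apart, 108 were higher and 42 lower, with a median of 0.11 (72% higher, against 48.5%). LOC111698123 had the smallest p, at 426, 410 and 441 normalised counts against 336, 316 and 381 in the controls. Its log2 fold change was 0.31, with an SE of 0.11 and a limma adjusted p of 0.566, which did not pass, and its Fatouville 2500 mg/L values were 469, 511 and 549. The comparisons with Control share the same 3 control libraries.

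**Figure D5:**
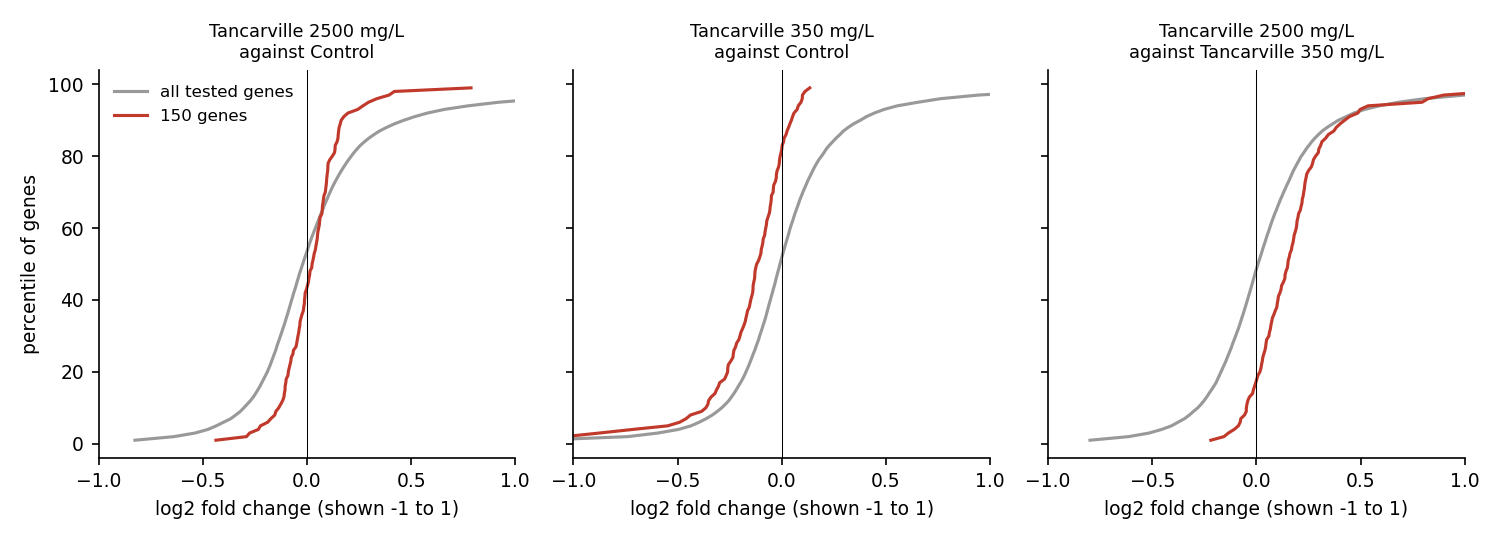
Percentiles 1 to 99 of log2 fold changes (horizontal axis, log2 scale, shown from -1 to 1) of the 150 genes in red and of all 18921 tested genes in grey, for the 3 Tancarville contrasts. The red curve lies near 0 at its middle for Tancarville 2500 mg/L against Control, to the left of the grey one for Tancarville 350 mg/L against Control (medians -0.12 and -0.01) and to its right between the concentrations (0.15 and 0.01).

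Among the 4 groups other than Fatouville 2500 mg/L, the second highest mean was that of Tancarville 2500 mg/L in 65 of the 150 genes, Control in 39, Fatouville 350 mg/L in 36 and Tancarville 350 mg/L in 10. The median over the 150 genes of the group mean was 424 normalised counts at Fatouville 2500 mg/L. It was 283 at Tancarville 2500 mg/L, 276 at Fatouville 350 mg/L, 274 in Control and 238 at Tancarville 350 mg/L. The last 2 in this order, Control and Tancarville 350 mg/L, are neighbours that were tested, and no gene of the 150 passed by limma. Fatouville 350 mg/L was not tested against its neighbours, since the rule used it.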

How the data were processed

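The authors deposited, per the file headers, 1 table with a signal per gene and library, gene read counts divided by 1 size factor, and a score, Cook's distance, not used here. All values above 0 were whole multiples of the library's smallest (tolerance 1e-06), so reads were recovered for all values (100%). Of the upstream tools, STAR, Salmon, HTSeq 0.11.2 and DESeq2 are named, without roles, per the submitters' processing notes. Genome build, annotation and strandedness are not given in the sources, and reads of near-identical or overlapping genes may be shared. Libraries were prepared with an mRNA kit from total RNA, per the labels' protocols.

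The Tancarville contrasts and Fatouville 2500 mg/L against Control were tested with limma 3.58.1 (R 4.3.3) on log2(value + 1), in 1 model of 5 groups over 15 libraries with an intensity trend and robust moderation. The filter on low values kept 18921 genes, those reaching 10 in 3 or more libraries. A call was a Benjamini-Hochberg adjusted p below 0.05 over all genes, 2-sided. Fold changes on this scale understate those of low genes. edgeR 4.0.16 and DESeq2 1.42.0 were run on recovered reads as alternatives, beside other pseudocounts, filters and scalings and each library left out. Counting intervals are 95% exact Poisson intervals, or exact binomial ones for a ratio.

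The genes, the lists and the rule for named genes were chosen with earlier results of these data known. Named were the 2 genes highest in rank, the 2 most and 2 least abundant, the last 2 inside and first 2 outside the limit, the gene of smallest p per tested contrast and the 3 genes most like the first. The 24 lists of product-name patterns matched 0 identifiers and gave no result. Replicates of a group all differed by more than sampling noise (chi-square per degree of freedom at least 12.5). Deviations from group means correlated positively for all 3 replicate numbers only between Control and Tancarville 2500 mg/L (0.19, 0.17 and 0.43) among the contrasts tested. The 0.43 joins Control 3 with Tancarville 2500 mg/L replicate 3, which both stand apart. The 3 values are not independent, and no label states a pairing, so none is taken from them. The limma p-values set a difference between groups against the spread between pools, estimated over all 15 libraries and moderated over genes.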

Additional observations from a re-analysis of the deposited data

How the results depend on the processing

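The number of genes meeting the rule, 400, ranged from 372 to 1971 with 1 library left out and was 655 without the 3 libraries that stood apart, an alternative chosen after seeing the data. It stayed within 1.5 times of 400 for other mean minimums, without the condition on Fatouville 350 mg/L and for other scalings. The count of the 150 genes called was 0 in each Tancarville contrast under all 28 alternatives. For Fatouville 2500 mg/L against Control, the contrast of the rule, the 7 called became 48 with a mean of at least 50, 35 with quantile normalisation, 11 with values divided by the library total, 103 by DESeq2, 1 in a fit of the 2 groups alone and 0 without the intensity trend. They became 104 without the 3 libraries and 0 to 77 with 1 left out. Over all genes, the 36 called (12 higher, 24 lower) became 298 (103 and 195) with a mean of at least 50, 551 (98 and 453) with quantile normalisation and 1641 (903 and 738) by DESeq2. With values divided by the library total, 46 (25 and 21) were called. They were 50 (31 and 19) in a fit of the 2 groups alone, 11 without the trend, 1726 (907 and 819) without the 3 libraries and 2 to 860 with 1 left out. The 4 called for Tancarville 2500 mg/L against Control became 223 by DESeq2, 0 in a fit of the 2 groups alone, without the trend or without the 3 libraries, and 0 to 5 with 1 left out. The 3 for Tancarville 350 mg/L against Control became 18 by DESeq2, 6 in a fit of the 2 groups alone, 1 without the trend, 0 without the 3 libraries and 0 to 5 with 1 left out. The 0 between the Tancarville concentrations became 2 by DESeq2 and stayed 0 with any 1 left out. The causes were not tested.

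With the replicate block, 10 genes and 0 of the 150 were called at Fatouville 2500 mg/L against Control, where the correlations by replicate number differed in sign. The block changed no call of the 150 in the Tancarville contrasts, with 3 genes called in all at 2500 mg/L and 2 at 350 mg/L against Control.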
